A study of Mus musculus with 5 samples.

Results

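The 49 genes described here encode proteins of the kinetochore, the spindle checkpoint and the wider machinery of mitosis. They were chosen as a module of known function, with earlier results of these data known, and were taken by gene symbol. All 49 were found among the 40624 genes of the deposited table, each in 1 row. The mutant atria carried SLN-Cre with Nkx2-5-flox/flox, and the control atria carried SLN-Cre with Nkx2-5-flox/+, all of C57BL/6 mice at postnatal day 1. There were 2 mutant libraries (replicates 5 and 7) and 3 control libraries (replicates 2, 4 and 6). Both groups carry the Cre, which is driven from the gene of sarcolipin, a calcium pump inhibitor of atrial myocytes, and the controls carry 1 floxed allele, so they are not wild type. Whole atrial tissue was used, with all of its cell types, and the labels do not state whether a library came from 1 animal or from several, so p-values measure only the spread between these libraries.

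The kinetochore is the protein assembly that joins a chromosome's centromere to spindle microtubules. Its inner layer sits on nucleosomes that contain the histone variant CENP-A, and its outer layer holds the NDC80 complex, which binds the microtubule. The spindle checkpoint reads unattached kinetochores and holds back CDC20, the activator of the anaphase promoting complex, until every chromosome is attached. Most of these genes are transcribed in G2 and M phase through the MuvB complex, FOXM1 and NF-Y, and their summed mRNA is widely used as a measure of proliferation. In the mouse heart, myocytes and the other resident cells still divide around birth, and myocytes largely leave the cell cycle in the first postnatal week.

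The following DNA elements are known from promoters of this class. The cell cycle genes homology region (CHR, searched as TTTGAA or TTCGAA) is bound by the MuvB complex, and the CCAAT box (searched as CCAAT) is bound by NF-Y. The promoters of 5 genes from RefSeq (GRCm38.p6), 250 bases before to 50 after the annotated start, show how these elements were arranged in examples. They are 4 genes that were higher in mutant atria and Cenpq, whose mRNA had the smallest difference. Capitals mark CHR and CCAAT letters on either strand, and each sequence runs 5′ to 3′ on the gene's own strand. The windows are chr1:189688037-189688336 (minus strand) for Cenpf, chr13:100786437-100786736 (minus) for Ccnb1, chr11:99024140-99024439 (minus) for Top2a, chr4:124936868-124937167 (minus) for Cdca8 and chr17:40934525-40934824 (minus) for Cenpq.
Cenpf: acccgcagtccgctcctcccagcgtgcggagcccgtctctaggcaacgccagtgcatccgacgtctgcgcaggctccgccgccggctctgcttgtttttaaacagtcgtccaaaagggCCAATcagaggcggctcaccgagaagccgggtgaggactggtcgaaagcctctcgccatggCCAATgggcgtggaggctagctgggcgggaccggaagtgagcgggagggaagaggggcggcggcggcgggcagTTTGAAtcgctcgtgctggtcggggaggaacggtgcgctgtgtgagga
Ccnb1: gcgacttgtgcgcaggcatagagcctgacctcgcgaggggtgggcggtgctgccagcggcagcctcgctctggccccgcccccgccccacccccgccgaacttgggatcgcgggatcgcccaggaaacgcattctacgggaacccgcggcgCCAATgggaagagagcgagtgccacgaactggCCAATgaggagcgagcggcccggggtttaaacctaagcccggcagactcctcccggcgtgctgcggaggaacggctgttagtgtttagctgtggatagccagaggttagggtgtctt
Top2a: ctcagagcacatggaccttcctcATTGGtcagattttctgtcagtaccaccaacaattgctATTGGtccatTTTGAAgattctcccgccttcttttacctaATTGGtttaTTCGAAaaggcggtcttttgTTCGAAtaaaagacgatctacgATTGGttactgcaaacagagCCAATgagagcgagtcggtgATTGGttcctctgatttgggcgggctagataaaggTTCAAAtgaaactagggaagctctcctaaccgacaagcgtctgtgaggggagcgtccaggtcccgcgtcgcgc
Cdca8: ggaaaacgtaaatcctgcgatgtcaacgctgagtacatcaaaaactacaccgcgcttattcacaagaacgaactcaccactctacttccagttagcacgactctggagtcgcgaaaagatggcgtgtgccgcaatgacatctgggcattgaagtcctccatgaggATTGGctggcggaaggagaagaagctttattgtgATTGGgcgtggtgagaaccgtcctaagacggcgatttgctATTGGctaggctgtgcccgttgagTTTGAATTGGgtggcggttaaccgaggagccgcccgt
Cenpq: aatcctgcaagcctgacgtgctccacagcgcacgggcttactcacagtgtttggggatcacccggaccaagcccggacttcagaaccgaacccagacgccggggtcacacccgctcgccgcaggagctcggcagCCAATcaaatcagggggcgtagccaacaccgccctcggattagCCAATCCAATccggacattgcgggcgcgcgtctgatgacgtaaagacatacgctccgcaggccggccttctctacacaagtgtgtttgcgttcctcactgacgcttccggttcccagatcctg

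The Cenpf window thus held 1 CHR and 2 CCAAT letters, Top2a 4 and 6, Cdca8 1 and 4, Ccnb1 0 and 2, and Cenpq 0 and 3. Among windows not printed, that of Cenpe, also called higher, held 0 and 1. That of Cenpo, also with a small difference, held 0 and 0. In Cdca8 the CHR shares its last base with a CCAAT box read on the other strand. Of the 49 genes, 42 had a promoter in the RefSeq table, and Spc24, Aurkb, Incenp, Tpx2, Foxm1, Ccna2 and Cdc25c had none there. A CHR was found in 26 of the 42 genes (61.9%, exact 95% interval 45.6 to 76.4%), against 21.7% of the 27025 genes of the table. A CCAAT box was found in 32 of the 42 (76.2%, 60.5 to 87.9%), against 41.1% of all genes, and both elements together in 24 of the 42 (57.1%), against 8.61%. E2F letters (TTGGCGC or TTCGCGC) stood in 6 of the 42 genes (14.3%), against 4.47%, and letters of an NKX2-5 element (TTAAGTG or TCAAGTG) in 1 of the 42 (2.38%), Cenpi, against 6.22%. Both strands were searched, matches of different motifs could overlap, and a gene with several starts counted when any of its windows held the letters. Such matches describe the letters only. The intervals cover counting error only.

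The libraries held 78841494 and 69648013 gene counts in mutants 5 and 7, and 58501214, 58884453 and 60899334 in controls 2, 4 and 6. Levels below are CPM, counts scaled by library size (TMM) in edgeR. Nkx2-5 stood at 5.79 and 5.21 CPM in mutants 5 and 7, against 76.8, 72.1 and 71.3 CPM in controls 2, 4 and 6, so the targeted gene was low in both libraries labelled mutant. The tissue label also matched defining markers, with the atrial myosin light chain gene Myl7 at 10383 ± 614 CPM in mutant atria (SD, n = 2) and 10712 ± 399 CPM in control atria (SD, n = 3). Of 20 cardiomyocyte markers, Tnnc1 has 2 entries in the table, of which 1 was listed at 0 in all 5 libraries and the other stood at 0.220 to 0.243 CPM in mutant atria and 0.235 to 0.305 CPM in control atria. The ventricular myosin light chain gene Myl2 stood at 18.5 and 8.26 CPM in mutants 5 and 7, against 22.3, 16.3 and 95.9 CPM in controls 2, 4 and 6, highest in control 6. Control 6 also stood apart among the 49 genes, with the lowest control value in 36 of them (73.5%) and the highest in none, whereas among all 17835 tested genes it was lowest in 35.02%. Control 4 had the highest control value in 34 of the 49 genes (69.4%, against 33.7% of all tested genes).

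Messenger RNA of the mitotic machinery was slightly higher in mutant atria. All 49 genes passed the filter on low counts (the lowest count in any library was 434), and all 49 had a positive log2 fold change, against 51.3% of all tested genes. The median log2 fold change was 0.24, or 1.18-fold, and the range was 0.01 to 0.63, while the median of all tested genes was 0.01. Summed over the 49 genes, the level was 3151 ± 55.0 CPM in mutant atria (SD, n = 2) and 2632 ± 119 CPM in control atria (SD, n = 3). Both mutant libraries lay above every control library for 37 of the 49 genes, which happened for 18.6% of all tested genes. The groups overlapped for the other 12, and 0 lay below (19.2% of all tested genes did). Genes of the same 5 libraries are not independent points, so counts of genes in this paragraph describe these libraries only. In all, 10 genes passed an adjusted p of 0.05 by the quasi-likelihood test of edgeR, with p-values adjusted by Benjamini-Hochberg over the whole table (20.4% of the 49, where 3.02% of all tested genes were called higher and 6.58% in either direction). They were Cenpf, Cenpe, Foxm1, Ccnb1, Top2a, Ccna2, Cdca8, Cdc25c, Incenp and Cdc20. None of the 49 was called lower (3.57% of all tested genes were), and 35 reached an unadjusted p under 0.05 with a positive fold change (10.5% of all tested genes). At an adjusted p of 0.1 in edgeR the count was 18 (5.16% of all tested genes), and DESeq2 called 16 at 0.05 (5.72% of the genes it gave an adjusted p).

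**Figure D1:**
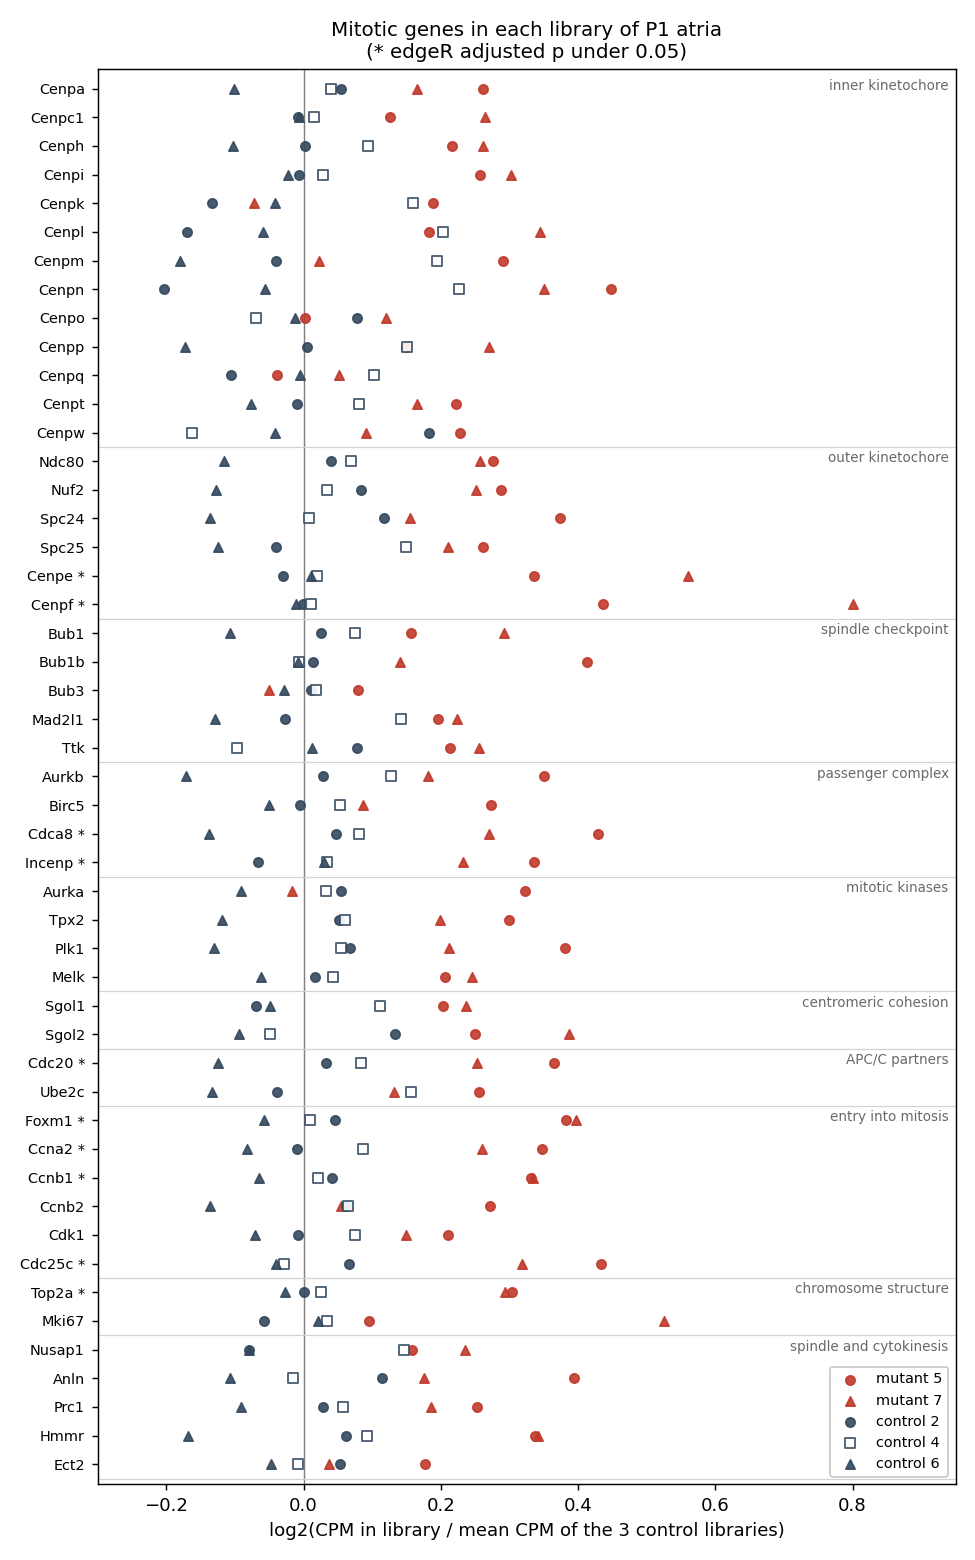
Level of each of the 49 genes in each library as log2 of its CPM over the mean of the 3 control libraries (x axis, log2 scale), ordered by role. Red symbols are mutants 5 and 7, dark symbols are controls 2, 4 and 6, and an asterisk marks edgeR adjusted p under 0.05. Red symbols lie right of all dark ones for 37 genes, and the dark triangle of control 6 is the leftmost control in 36.

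These 10 calls rested on all 3 control libraries. Leaving out control 2 left 1 gene called, leaving out control 4 left 0 and leaving out control 6 left 1, and the gene in both of those cases was Cenpf. Without mutant 5 there were 6 calls and without mutant 7 there were 8. Of all tested genes, 1.26% were called higher without control 2, 1.15% without control 4, 1.85% without control 6 and 2.19% without mutant 7, all below the 3.02% of the full set. Without mutant 5 that share was 4.96%, so calls were more numerous over the whole table while they were fewer among the 49. Without control 6, the library high in Myl2, the median log2 fold change of the 49 genes was 0.20. The fold changes moved far less, as the median of the 49 genes lay between 0.20 and 0.28 whichever library was left out. With library totals in place of TMM, 47 of the 49 fold changes were positive, the median was 0.20 and 5 genes were called (2.52% of all tested genes).

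**Figure D2:**
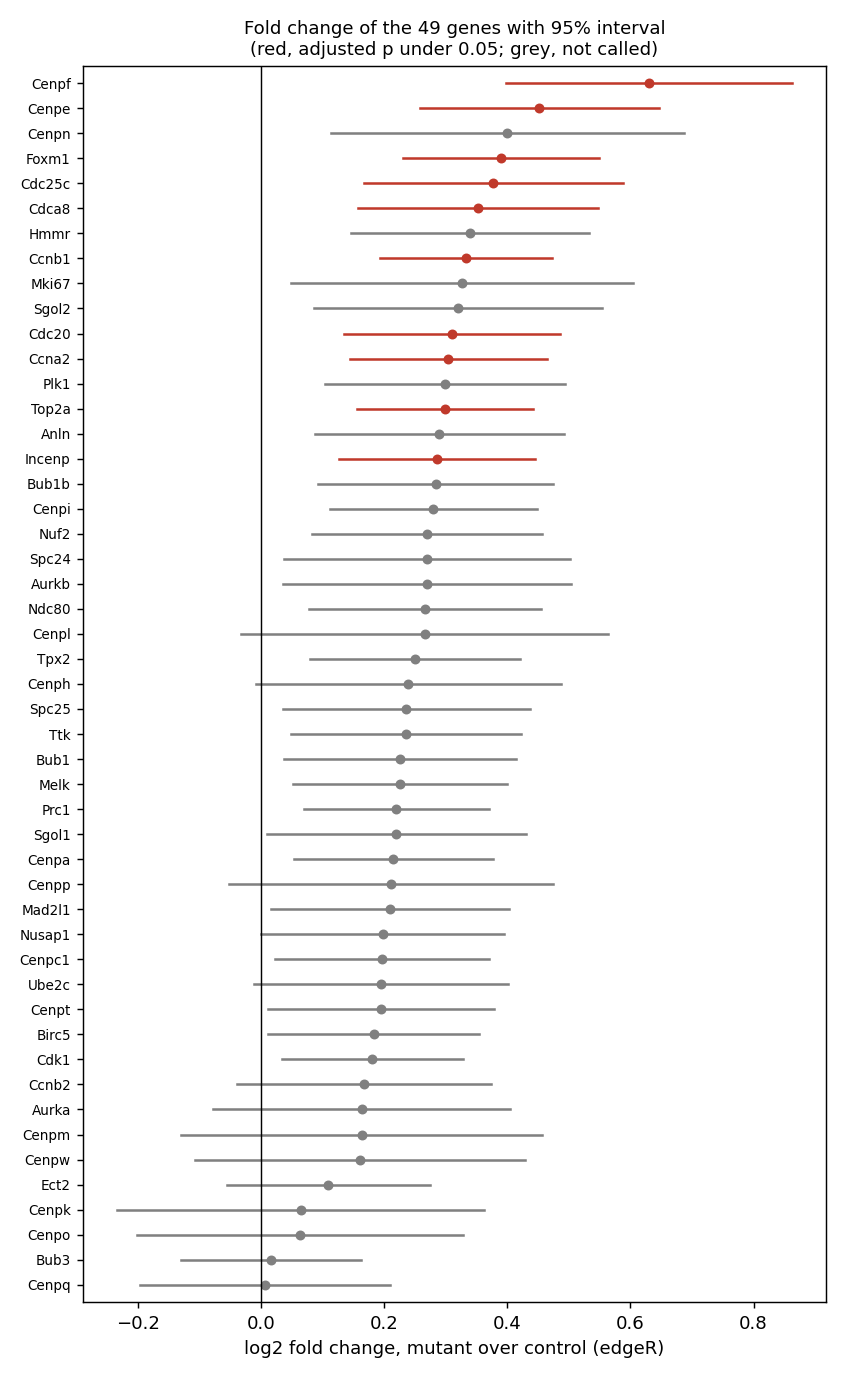
Log2 fold change of mutant over control for each of the 49 genes (x axis) with its 95% interval from the edgeR fit, sorted by size. Red genes passed adjusted p under 0.05, and Cenpf stands highest at 0.63.

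The entry into mitosis is driven by CDK1 with its cyclins, and 4 of the 6 genes of this role rose. Foxm1, the transcription factor that activates G2 and M phase genes, stood at 52.5 and 53.0 CPM in mutants 5 and 7, against 41.6, 40.5 and 38.7 CPM in controls 2, 4 and 6. It was higher in both mutant libraries than in any control, with a log2 fold change of 0.39 ± 0.07 (SE) and an adjusted p of 0.0145 (edgeR). Ccnb1, the gene of the mitotic cyclin B1, stood at 104 and 105 CPM in mutants 5 and 7, against 85.4, 84.2 and 79.3 CPM in controls 2, 4 and 6. The mutant libraries differed from each other by less than the controls did, and the log2 fold change was 0.33 ± 0.06 (SE, adjusted p = 0.0162, edgeR). Ccna2, the gene of cyclin A2, which acts in S phase and in early mitosis, stood at 168 and 158 CPM in the mutants, against 131, 140 and 124 CPM in the controls. Its log2 fold change was 0.30 ± 0.07 (SE, adjusted p = 0.0378, edgeR), again without overlap between the groups.

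Cdc25c encodes a phosphatase that removes inhibitory phosphates from CDK1. Its level was low, 17.5 and 16.2 CPM in mutants 5 and 7, against 13.6, 12.7 and 12.6 CPM in controls 2, 4 and 6, and its log2 fold change was 0.38 ± 0.09 (SE, adjusted p = 0.0478, edgeR). Cdk1, the kinase itself, stood at 138 and 132 CPM in the mutants, against 119, 126 and 114 CPM in the controls. The groups did not overlap, but the fold of 1.13 (95% interval 1.02 to 1.26) did not pass (adjusted p = 0.15, edgeR). Ccnb2, the gene of cyclin B2, stood at 84.4 and 72.6 CPM in the mutants, against 73.0, 73.1 and 63.7 CPM in the controls. Mutant 7 lay within the control range, and the fold of 1.12 (95% interval 0.97 to 1.29) did not pass. By the authors' deposited RPKM, which scales for length, Ccnb2 had the highest level of the 49 genes, 46.8 in mutant and 42.1 in control atria. That order depends on the length used. The deposited length was 1541 bases for Ccnb2 and 11735 for Top2a. Their longest coding transcripts in GENCODE vM21 had 1531 and 5221 bases.

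The outer kinetochore held the gene pair with the largest folds of all 49, and 2 of its 6 genes rose. Cenpf, a protein of the fibrous corona that spreads over unattached kinetochores, stood at 59.9 and 77.1 CPM in mutants 5 and 7, against 44.2, 44.6 and 43.9 CPM in controls 2, 4 and 6. It lies in mm9 on chromosome 1 with a coding span from 191466478 to 191508985. The controls agreed within 1 CPM while the mutant libraries stood far apart, and the log2 fold change was 0.63 ± 0.10 (SE, adjusted p = 0.00995, edgeR). Cenpe, the kinesin that carries chromosomes along microtubules, stood at 42.7 and 49.9 CPM in the mutants, against 33.1, 34.3 and 34.1 CPM in the controls. It rose by 0.45 ± 0.09 (SE) on the log2 scale, with an adjusted p of 0.0179 (edgeR).

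The NDC80 complex is the microtubule coupler, and none of its 4 genes passed the test. All 4 nonetheless had both mutant libraries above every control, as did 18.6% of all tested genes. Ndc80 stood at 33.6 and 33.2 CPM in mutants 5 and 7, against 28.5, 29.1 and 25.6 CPM in controls 2, 4 and 6 (adjusted p = 0.10, edgeR). Nuf2 stood at 50.6 and 49.3 CPM in the mutants, against 43.9, 42.4 and 37.9 CPM in the controls (adjusted p = 0.0964, edgeR). Their partners in the other dimer, Spc24 and Spc25, had log2 fold changes of 0.27 and 0.24. The 4 subunits therefore differed between groups by a narrow range of 0.24 to 0.27 on the log2 scale.

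The inner kinetochore had 13 genes, and 0 of them passed. Its median log2 fold change was 0.20. Both mutant libraries lay above every control for 6 of the 13, and for 18.6% of all tested genes. Cenpa, the centromeric histone gene, stood at 99.3 and 92.8 CPM in mutants 5 and 7, against 86.0, 85.1 and 77.2 CPM in controls 2, 4 and 6, a 1.16-fold difference (95% interval 1.04 to 1.30). Cenpi, a subunit of the centromere-associated network, had the smallest p of this role, at 25.8 and 26.6 CPM in the mutants, against 21.5, 21.98 and 21.2 CPM in the controls (adjusted p = 0.0609, edgeR). Cenpn, whose protein binds the CENP-A nucleosome, had the largest fold of the role, 1.32 (1.08 to 1.61), with an adjusted p of 0.11 (edgeR). Its controls spread widely, from 13.2 CPM in control 2 to 17.7 CPM in control 4.

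Several inner kinetochore genes showed next to no difference. Cenpq stood at 20.4 and 21.8 CPM in mutants 5 and 7, against 19.5, 22.6 and 20.9 CPM in controls 2, 4 and 6, and its fold was 1.005 with a 95% interval of 0.87 to 1.16. Cenpo and Cenpk had folds of 1.04 (0.87 to 1.255) and 1.05 (0.85 to 1.29). The direction of these 3 genes was not stable, as each turned negative when 1 library was left out, Cenpk without mutant 5 (-0.07), Cenpo without mutant 7 (-0.00) and Cenpq without control 2 (-0.04) or mutant 7 (-0.04). Cenpq turned negative also with library totals, with upper quartile scaling and with sex as a covariate. Cenpc1, the gene of the CENP-C scaffold, Cenph, Cenpl, Cenpm, Cenpp, Cenpt and Cenpw had log2 fold changes between 0.16 and 0.27.

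The spindle checkpoint had 5 genes, and 0 passed. Bub1b, the gene of BUBR1, which inhibits CDC20, stood at 85.5 and 70.8 CPM in mutants 5 and 7, against 64.8, 63.9 and 63.9 CPM in controls 2, 4 and 6. Mutant 5 lay well above mutant 7, and the log2 fold change of 0.28 ± 0.08 (SE) had an adjusted p of 0.0872 (edgeR), which became 0.0135 without mutant 7 (log2 fold change 0.41) and 0.25 without mutant 5 (log2 fold change 0.14). Ttk, the gene of the MPS1 kinase at the head of the pathway, stood at 27.2 and 28.0 CPM in the mutants, against 24.8, 21.97 and 23.7 CPM in the controls (adjusted p = 0.14, edgeR). Bub1 and Mad2l1 had log2 fold changes of 0.23 and 0.21. Bub3, an adaptor of BUB1 and BUBR1, departed from the other 4, at 91.2 and 83.4 CPM in the mutants, against 87.0, 87.5 and 84.7 CPM in the controls. The control values fell between those of the mutants, the fold was 1.01 (95% interval 0.91 to 1.12), and the sign turned with library totals (-0.02) and without mutant 5 (-0.05). By the authors' deposited RPKM, Bub3 was among the most abundant of the 49 genes, at 39.0 in mutant and 39.0 in control atria. Its deposited length was 2055 bases, and its longest coding transcript in GENCODE vM21 had 3414 bases.

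The chromosomal passenger complex, which corrects faulty attachments and directs cytokinesis, had 2 of its 4 genes called. Cdca8, the gene of borealin, stood at 73.7 and 66.0 CPM in mutants 5 and 7, against 56.5, 57.8 and 49.7 CPM in controls 2, 4 and 6 (log2 fold change 0.35 ± 0.09 SE, adjusted p = 0.0464, edgeR). Incenp, the scaffold of the complex, stood at 63.8 and 59.3 CPM in the mutants, against 48.2, 51.7 and 51.6 CPM in the controls (0.29 ± 0.07 SE, adjusted p = 0.0478, edgeR). Neither gene overlapped between the groups. Aurkb, the kinase of the complex, stood at 41.7 and 37.1 CPM in the mutants, against 33.4, 35.7 and 29.0 CPM in the controls, and Birc5, the gene of survivin, had a log2 fold change of 0.18. Aurkb (adjusted p = 0.18, edgeR) and Birc5 (0.21) did not pass. All 4 genes of the complex nonetheless had both mutants above every control, as did 18.6% of all tested genes.

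The remaining mitotic kinases and the Aurora A activator made up 4 genes, and none of them passed. Plk1, the polo kinase, stood at 68.3 and 60.8 CPM in mutants 5 and 7, against 55.0, 54.6 and 47.9 CPM in controls 2, 4 and 6 (adjusted p = 0.0792, edgeR). Tpx2, the activator of Aurora A, stood at 95.4 and 89.0 CPM in the mutants, against 80.4, 80.9 and 71.4 CPM in the controls (adjusted p = 0.0916, edgeR). Both were without overlap. Aurka itself stood at 53.0 CPM in mutant 5 but at 41.8 CPM in mutant 7, within the control range of 39.8 to 44.0 CPM. Its fold of 1.12 (95% interval 0.95 to 1.32) did not pass, and its log2 fold change was -0.02 without mutant 5. Melk had a log2 fold change of 0.23.

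Genes of cohesion and of anaphase came next. The shugoshins protect centromeric cohesin until anaphase, and Sgol1 and Sgol2 had log2 fold changes of 0.22 ± 0.09 and 0.32 ± 0.10 (SE), neither of which passed (adjusted p = 0.22 and 0.11, edgeR). Cdc20, the target of the checkpoint, stood at 114 and 105 CPM in mutants 5 and 7, against 90.5, 93.7 and 81.2 CPM in controls 2, 4 and 6. It rose by 0.31 ± 0.08 (SE) on the log2 scale with an adjusted p of 0.0497 (edgeR), just inside the threshold, and Hmmr lay just outside it at 0.0506. Ube2c, the ubiquitin-conjugating enzyme of the anaphase promoting complex, stood at 107 and 97.8 CPM in the mutants, against 86.9, 99.5 and 81.4 CPM in the controls. Control 4 lay above mutant 7, and the fold of 1.14 (95% interval 0.99 to 1.32) did not pass.

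Top2a and Mki67 are the classical proliferation markers of the module. Top2a, the topoisomerase that untangles sister chromatids, stood at 285 and 283 CPM in mutants 5 and 7, against 231, 235 and 226 CPM in controls 2, 4 and 6. The values were tight in both groups, and the log2 fold change was 0.30 ± 0.06 (SE, adjusted p = 0.0266, edgeR). Mki67, the gene of the Ki-67 protein that coats mitotic chromosomes, stood at 163 and 220 CPM in the mutants, against 147, 156 and 155 CPM in the controls. Its log2 fold change of 0.33 ± 0.12 (SE) was as large as that of Top2a, but mutant 5 lay close to the controls and the gene did not pass (adjusted p = 0.17, edgeR). Its log2 fold change was 0.52 without mutant 5 (adjusted p = 0.00255, edgeR) and 0.09 without mutant 7 (adjusted p = 0.53).

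Of the 5 genes of the spindle and of cytokinesis, 0 passed. Hmmr, a spindle assembly factor, stood at 79.5 and 79.8 CPM in mutants 5 and 7, against 65.7, 67.1 and 56.1 CPM in controls 2, 4 and 6, with a log2 fold change of 0.34 ± 0.08 (SE). Prc1, which bundles microtubules of the spindle midzone, had a fold of 1.17 (95% interval 1.05 to 1.29), and Anln, an actin-binding protein of the cleavage furrow, 1.22 (1.06 to 1.41). Nusap1 had a fold of 1.15. Ect2, an exchange factor that acts at the cleavage plane in cytokinesis, stood at 58.8 and 53.3 CPM in the mutants, against 53.9, 51.7 and 50.3 CPM in the controls. Mutant 7 lay below control 2 there, and the fold was 1.08 (0.96 to 1.21).

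Across the 49 genes the size of a fold was limited. No upper bound of a 95% interval reached 2-fold, the highest being 1.82 for Cenpf, and 5 exceeded 1.5-fold. In the authors' deposited table, 6 of the 49 genes had an adjusted p under 0.05 (2.04% of the genes with a value there were higher at that threshold), and 5 of these 6 were also called by edgeR here. The sixth was Hmmr, with the authors' deposited adjusted p of 0.0324.

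The difference between the mutant libraries varied among the genes. Mutant 7 was above mutant 5 for 20 of the 49 (40.8%, against 48.3% of all tested genes). The genes with transcripts of 7 kb or more, Cenpf, Mki67, Cenpe and Mad2l1, were among them. Cenpf (longest coding transcript 11130 bases in GENCODE vM21), Mki67 (10061 bases) and Cenpe (7910 bases) had log2 differences of mutant 7 over mutant 5 of 0.36, 0.43 and 0.22, each on the log2(CPM + 0.1) scale. For Mad2l1 (7557 bases in GENCODE vM21, but a deposited length of 3936) this difference was only 0.03. The median of the 16 genes with transcripts under 2 kb was -0.11. Across the 49 genes, the Spearman correlation between length and this difference was 0.41, and across 10303 tested genes whose mean log2 CPM reached 3 it was 0.46, where genes of the same 2 libraries are not independent points. Among those 10303 genes, the 1015 with transcripts of 7 kb or more had a median difference of 0.21 between mutants 7 and 5 and a median log2 fold change of mutant over control of 0.10. The 2365 genes under 2 kb had -0.12 and -0.04. The module's median log2 fold change was 0.23 for 16 genes under 2 kb and 0.23 for 19 of 2 to 4 kb. It was 0.26 for 10 of 4 to 7 kb and 0.39 for 4 of 7 kb or more. The Spearman correlation of fold change with length was 0.23 in the 49 genes and 0.23 in the 10303. The part of transcript length in the fold changes of Cenpf, Cenpe and Mki67 was not tested.

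**Figure D3:**
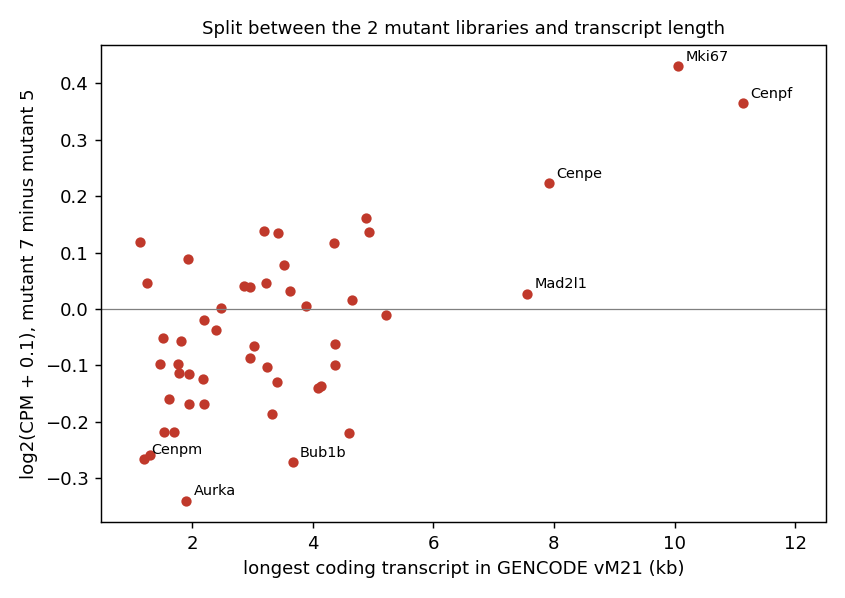
Log2 difference in CPM between mutant 7 and mutant 5 (y axis, pseudocount 0.1) against the length of the longest coding transcript (x axis, kb) for the 49 genes. Mki67, Cenpf and Cenpe lie at the upper right, with differences of 0.43, 0.36 and 0.22, and Aurka is lowest.

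Fold changes of genes with and without each promoter element covered overlapping ranges among the 42 genes with a promoter. The called genes Foxm1, Ccna2, Incenp and Cdc25c had no promoter listed and are in neither group. The 26 genes with a CHR had a median log2 fold change of 0.24 (range 0.02 to 0.63) and the 16 without one had 0.21 (0.01 to 0.45), with 4 and 2 genes called. The 32 genes with a CCAAT box had a median of 0.24, with 6 called, and the 10 without it had 0.21, with 0 called. The 6 genes with E2F letters had 1 called and the 36 without them had 5. Bub3, one of the flattest genes, has a CHR and a CCAAT box, and Cenpe, with a large fold, has no CHR in its window.

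The 49 genes were set beside other lists of the cell cycle, first other mitotic genes. Of 58 other genes of mitosis and cytokinesis, 13 rose and 0 fell (22.4% against 20.4% of the 49), with a median log2 fold change of 0.27 and 56 positive. Arhgap11a led them at 51.0 ± 2.00 CPM in mutant atria (SD, n = 2) and 35.3 ± 0.79 CPM in control atria (SD, n = 3). Lmnb1, the gene of lamin B1, rose by 0.38 ± 0.06 (SE) and the kinesin gene Kif2c by 0.39 ± 0.07 (SE) on the log2 scale. The 13 rises became 1, 3 and 2 without control 2, 4 or 6, as in the 49.

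Lists of related complexes had smaller medians. Of 26 other kinetochore, checkpoint and centromere genes, 1 rose and 1 fell, with a median of 0.12. The rise was that of Zwilch, a subunit of the complex that brings dynein to kinetochores (0.45 ± 0.08 SE), and it was lost without control 2, control 4 or mutant 7. The fall was that of Cenpv (-0.85 ± 0.11 SE), which stood at 5.51 ± 0.08 CPM in mutant atria (SD, n = 2) and 9.96 ± 0.45 CPM in control atria (SD, n = 3). Of 15 subunits and partners of the anaphase promoting complex, 0 passed by edgeR, 0 had an unadjusted p under 0.05, and the median was -0.00, with a sign that turned without control 2 (0.03) or mutant 7 (0.03). Of 13 genes of the DREAM and MuvB complexes and their partners, 0 rose and 1 fell, Tfdp2, by 0.33 ± 0.07 (SE) on the log2 scale, a call lost without control 2, 4 or 6 or mutant 7. Of 57 genes of DNA replication, 3 rose, Pole, Rrm1 and Uhrf1, with a median of 0.13 (0.07 without mutant 5 and 0.19 without mutant 7) and 48 positive, and 0 remained without control 2, 4 or 6. The differences between these lists and the 49 genes were not tested.

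**Figure D4:**
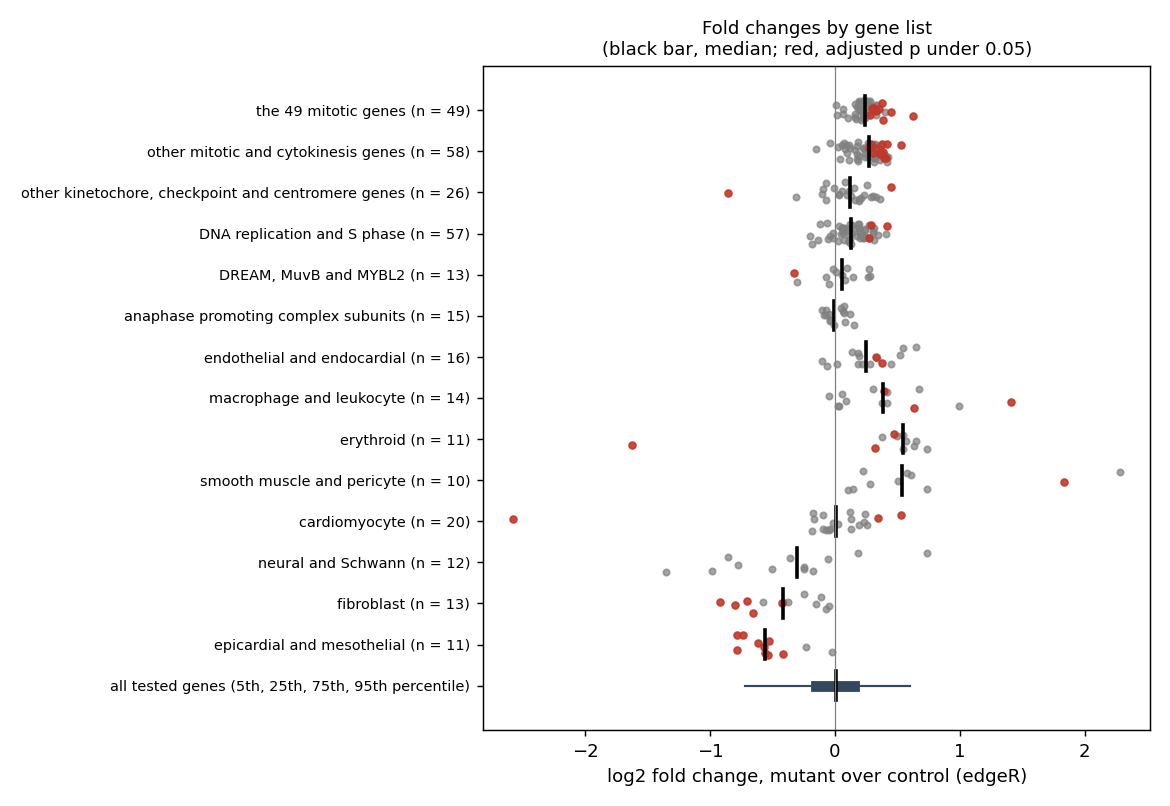
Log2 fold change of mutant over control (x axis) for each gene of the 49, of 5 other cell cycle lists and of 8 marker lists, with the distribution of all tested genes at the bottom. Black bars are medians, 0.24 for the 49 genes and 0.27 for other mitotic genes, and red points passed adjusted p under 0.05.

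Markers of the other cell types of the atrium moved between the groups as well. In whole tissue, fewer cells of a type and less RNA per cell cannot be told apart. Epicardial and mesothelial markers fell in 9 of 11 tested (81.8%, against 3.57% of all tested genes). Their summed levels were 859 to 891 CPM in mutant atria and 1252 to 1436 CPM in control atria. Fibroblast markers fell in 5 of 13 (38.5%), with sums of 9282 to 9508 CPM in the mutants and 11679 to 13237 CPM in the controls. Lum and Dcn, both small proteoglycan genes of fibroblasts, were among these falls, at -0.92 ± 0.09 and -0.80 ± 0.08 (SE) on the log2 scale. None of the markers of these lists was at 0 in all libraries.

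For blood, endothelial and smooth muscle markers, 1 to 3 of each list were called higher. These were 18% of erythroid, 21% of leukocyte, 13% of endothelial and 10% of smooth muscle markers tested, against 3.02% of all tested genes. The share among the 49 genes was 20.4%. In the same order, the list medians of the log2 fold change were 0.55, 0.39, 0.25 and 0.54, against 0.24 for the 49 genes. Erythroid markers rose in 2 of 11 tested (the globin gene Hba-a1 and the transferrin receptor gene Tfrc) and fell in 1 (Spna1), with sums of 1883 to 1911 CPM in the mutants and 1215 to 1571 CPM in the controls. Macrophage and leukocyte markers rose in 3 of 14 (Fcgr1, S100a8 and Emr1), with sums of 329 to 357 CPM in the mutants and 290 to 315 CPM in the controls. Endothelial and endocardial markers rose in 2 of 16 (Eng and Tie1), with sums of 3357 to 3812 CPM in the mutants and 2924 to 3152 CPM in the controls. Of 10 smooth muscle and pericyte markers, 1 rose, the actin gene Acta2, with sums of 2070 to 2399 CPM in the mutants and 898 to 1071 CPM in the controls. Acta2 alone stood at 1469 ± 318 CPM in mutant atria (SD, n = 2) and 411 ± 39.0 CPM in control atria (SD, n = 3). Cardiomyocyte markers summed to 74695 to 80527 CPM in the mutants and 76006 to 79611 CPM in the controls, with 2 of 20 higher (Myoz2 and Des) and 1 lower (Nppa). Of 12 neural and Schwann markers, 0 passed by edgeR, 2 had an unadjusted p under 0.05 and the sums were 38.9 to 45.8 CPM in the mutants and 38.3 to 54.8 CPM in the controls.

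The counts of raised erythroid, leukocyte and endothelial markers were fragile. Without control 2 or control 4, 0 erythroid, leukocyte and endothelial markers were called higher. Without control 6 the calls were 4 erythroid, 1 leukocyte and 0 endothelial, and without mutant 5 endothelial calls numbered 6. Falls were called for epicardial and fibroblast markers in every such case, at 7 to 9 and 4 to 6 with any 1 library left out. None of these lists' part in the fold changes of the mitotic genes was tested, and which cells the mitotic mRNA came from cannot be told apart in these libraries.

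**Figure D5:**
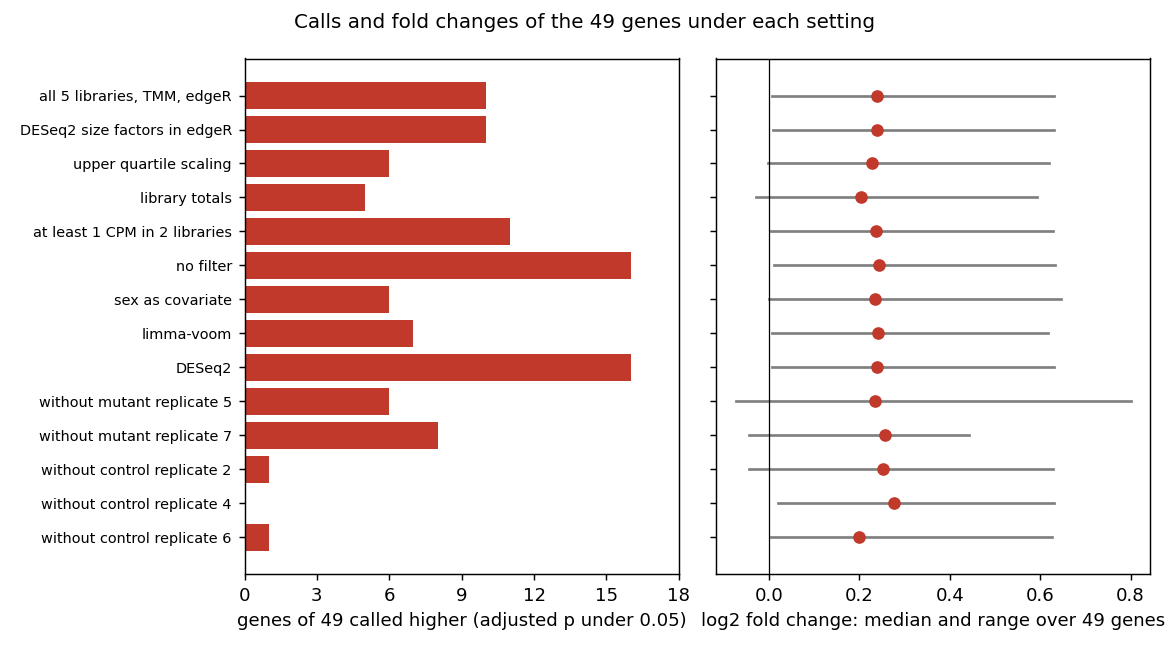
Left, number of the 49 genes called higher at adjusted p under 0.05 under each setting (bars start at 0). Right, median (point) and range (line) of their log2 fold changes. The calls run between 0 without control replicate 4 and 16 with DESeq2 or no filter, while the medians stay between 0.20 and 0.28.

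Counts could not be assigned to a strand from what the sources used here state. Of the 49 genes, 14 have exonic bases that an opposite-strand gene also covers in GENCODE vM21, and 4 of the 10 called genes are among them, Ccna2 (510 bases with Exosc9), Cdca8 (232 with 9930104L06Rik), Cdc20 (53 with Elovl1) and Cdc25c (623 with Gm3550). Reads of these stretches could not be told apart by strand, and whether they were counted as ambiguous and so left out is not known. On the same strand, 2 called genes share exonic bases with another gene, Foxm1 (144 with Tex52 and 97 with Gm44596) and Top2a (122 with Gm23451). Ccnb1, Ccnb2 and Aurkb each have a pseudogene named after them in RefSeq, and whether these copies took reads was not tested.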

How the data were processed

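RNA of atria at postnatal day 1 was measured in 5 polyA libraries prepared with a TruSeq RNA kit (250 ng input), per the labels' protocols. Raw counts of reads were deposited by the authors as a single table (40624 genes), with RPKM values pooled per group, a log2 ratio of mutant over control, a p-value and an adjusted p-value. Per the submitters' processing notes, TopHat2 2.0.4, DESeq and HTSeq 0.5.4p3 were used on build mm9, with no role given for each. The deposited Length column gives bases per gene and is another value that was not used in a test. Counting entries that name no gene were left out of totals and tests (no_feature was 3.97 to 6.03% of all counts). The ambiguous entry was 2.45 and 2.31% in mutants 5 and 7, against 3.09, 3.18 and 2.87% in controls 2, 4 and 6. The part of this difference in the fold changes was not tested.

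The counts were analysed in R 4.3.3 by edgeR 4.0.16. The low-count filter was filterByExpr (minimum count 10, minimum total 15), which left 17835, and TMM gave the scaling. The test was the quasi-likelihood test (robust, two-sided, prior count 0.125, no covariate), adjusted by Benjamini-Hochberg over these genes, and called below 0.05. The standard error is the log2 fold change over the square root of F. Adjusted p-values in the text marked edgeR come from this fit. An exact permutation test of 1 gene with 2 against 3 libraries cannot go below p = 0.1. Alternatives were other scalings, no filter or 1 CPM in 2 libraries, DESeq2 1.42.0, limma-voom (limma 3.58.1), sex read from Xist and Ddx3y as a covariate (mutant 5 and control 4 were male), a threshold of 0.1 and each library left out.

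The 49 genes, the lists, the motifs and the named genes were chosen with earlier results of these data known. Named genes are the called members, the 2 with the smallest p in each role, Cenpf, Foxm1, Ccnb1, Cdk1, Mki67, Top2a, Aurkb and Bub1b, and up to 3 of each other list. Other members, such as Bub3, Cenpa, Cenpq, Aurka and Ect2, were described after their values were seen. GENCODE vM21 and RefSeq (GRCm38) served for names, transcript lengths, overlaps and promoters, and coordinates of genes are those of the table (mm9).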

Additional observations from a re-analysis of the deposited data

How the results depend on the processing

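No paired analysis was possible because the groups share no replicate number. Over the whole table, all genes called higher and all genes called lower, 538 and 636, were 960 and 1044 with DESeq2 and 920 and 1027 at a threshold of 0.1. With 1 library left out they lay between 203 and 910 higher and between 306 and 804 lower. The share of all tested genes called higher was 3.02%, against 2.52% with library totals and 2.83% with upper quartile scaling. That share was 2.86% without a filter, 2.64% with sex as a covariate, 5.72% with DESeq2 (of genes given an adjusted p) and 5.16% at 0.1. Of the 49 mitotic genes, 10 were called higher, against 5 with library totals, 6 with upper quartile scaling and 16 without a filter. The count was 6 with sex as a covariate, 16 with DESeq2 and 18 at a threshold of 0.1. It was 0 to 8 with 1 library left out, and 0 were called lower under any of these settings. Where a mutant library was left out, the lone mutant was assumed to vary like the controls.

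The median log2 fold change of the 49 genes moved by less than the spread between replicates under every scaling, filter, test and left-out library. Among single genes, the log2 fold change of Cenpk turned to -0.0734 without mutant 5 (range with 1 library left out -0.0734 to 0.184), Cenpo to -0.00253 without mutant 7 (-0.00253 to 0.120) and Aurka to -0.0179 without mutant 5 (-0.0179 to 0.318). Bub3 turned to -0.0193 with library totals and -0.0511 without mutant 5 (-0.0511 to 0.0745). Cenpq turned to -0.0292 with library totals, -0.00330 with upper quartile scaling, -0.000169 with sex as a covariate, -0.0443 without control 2 and -0.0435 without mutant 7 (-0.0443 to 0.0558). The causes were not tested. Narrowing the promoter window to 150 bases before the start left a CHR in 59.5% and a CCAAT box in 76.2% of the 42 genes. Among all genes with a promoter the shares in that window were 13.7% and 31.9%. The lowest count of a mitotic gene in a library was 434, and the small number of libraries limits the precision.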
